A study of Mus musculus with 13 samples.

Results

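The regional miRNA profile of TgR mice was described from 7 small-RNA libraries, 3 from the hippocampus and 4 from the prefrontal cortex (PFC), among the 13 libraries of the series. The 7 libraries were chosen by their titles, and counts were scaled across these 7 alone. TgR mice carry human AChE-R, the read-through splice variant of acetylcholinesterase, over-expressed in the FVB/N strain, and all 7 libraries share this genotype (hACHE-R overexpression). The transgene is constitutive and runs from a minimal cytomegalovirus promoter-enhancer, which was not chosen for a brain region or cell type. Activity of such a promoter can vary with neuronal activity, so the level of the transgene need not be equal in the hippocampus and the PFC or in all neurons. FVB/N mice of wild-type genotype gave 3 hippocampus and 3 PFC libraries, which are used here only to set the same contrast beside that of TgR. The labels give no age or sex for the sequenced mice and do not say whether the hippocampus and the PFC of a given number came from the same animal. Small-RNA reads do not measure the AChE-R mRNA, so the transgene itself could not be checked in these libraries. The study's authors reported by qPCR a massive, selective AChE-R increase in TgR hippocampi and more modest increases in the PFC. Region and AChE-R excess therefore differ together in this contrast and cannot be told apart.

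miRNAs are short RNAs cut from hairpin precursors, and each hairpin can yield a 5p and a 3p mature arm. A mature miRNA guides Argonaute to target mRNAs largely through its seed, bases 2 to 8, so that miRNAs with the same seed can share targets. The hippocampus and the PFC are both cortical tissues rich in glutamatergic neurons, but they differ in their neuron types, in their white matter and in what lies against them, since the hippocampus borders the lateral ventricle with its choroid plexus and ciliated ependyma. Several miRNAs are known to be concentrated in particular cells of the brain, such as miR-124 and miR-128 in neurons, miR-219 and miR-338 in oligodendrocytes, miR-204 in the choroid plexus and miR-34b/c in multiciliated cells. A bulk library holds all of these cells, and more cells of a type cannot be told apart from more of the miRNA per cell.

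Levels are CPM, that is counts scaled to a common library size with factors from the trimmed mean of M values (TMM) across the 7 libraries, and a fold change is hippocampus over PFC. Totals were 8695210 to 11111883 counts in the hippocampus and 5350259 to 10858410 in the PFC, where replicate 2 was the lowest, and 3 counts correspond to 0.27 to 0.561 CPM. The 5 most abundant miRNAs took 43.7 to 45.9% of the counts in the hippocampus and 47.9 to 51.8% in the PFC. In a principal component analysis of 388 miRNAs, the first component (61.1% of the variance) separated the regions, with hippocampus replicate 2 nearest to the PFC (score 3.17, against 8.54 and 8.67 for the other hippocampi and -7.65 to -3.62 for the PFC). PFC replicate 2 lay apart from the other PFC libraries on the second component (23.8%, score -5.85 against -0.01 to 6.19). Results that rest on these libraries are given with and without them. Neuronal miRNAs were abundant in every library, with miR-9-5p at 96152 to 117215 CPM, whereas the liver miRNA miR-122-5p lay at 6.66 to 12 CPM. No list used here marks hippocampal or prefrontal neurons as such, so the region labels were checked only by the separation of the libraries.

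The mature sequences of the miRNAs on which the regional differences turn are shown 5′ to 3′ as RefSeq lists them on GRCm38.p6, with the seed in capitals. RefSeq gave a sequence for 535 of the 633 tested miRNAs and for 80 of the 86 that differed between the regions. The first set was higher in the hippocampus, except for miR-34a-5p, miR-211-5p and let-7a-5p, which are shown as relatives that did not pass the test.

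miR-219a-5p: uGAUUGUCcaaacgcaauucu
miR-338-3p: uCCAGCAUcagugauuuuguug
miR-34b-3p: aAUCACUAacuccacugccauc
miR-34c-3p: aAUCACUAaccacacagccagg
miR-34a-5p: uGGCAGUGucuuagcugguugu
miR-204-5p: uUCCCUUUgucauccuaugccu
miR-211-5p: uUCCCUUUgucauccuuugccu
miR-1298-5p: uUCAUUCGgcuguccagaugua
miR-448-3p: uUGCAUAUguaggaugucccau
miR-21a-5p: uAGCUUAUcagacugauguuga
let-7b-5p: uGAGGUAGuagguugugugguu
let-7c-5p: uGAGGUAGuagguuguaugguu
let-7a-5p: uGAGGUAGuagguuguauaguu
miR-103-3p: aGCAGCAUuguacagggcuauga
miR-107-3p: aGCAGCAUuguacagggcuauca

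The second set holds miRNAs higher in the PFC, beside their closest relatives where these went the other way or did not pass the test.

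miR-128-3p: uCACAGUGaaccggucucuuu
miR-132-5p: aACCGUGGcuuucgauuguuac
miR-132-3p: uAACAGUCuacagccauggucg
miR-212-5p: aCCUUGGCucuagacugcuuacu
miR-212-3p: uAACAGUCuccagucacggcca
miR-135a-5p: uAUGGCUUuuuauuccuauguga
miR-27a-3p: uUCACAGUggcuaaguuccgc
miR-27b-3p: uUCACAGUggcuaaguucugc
miR-148a-3p: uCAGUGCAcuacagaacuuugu
miR-148b-3p: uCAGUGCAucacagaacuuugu
miR-152-3p: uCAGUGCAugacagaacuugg
miR-144-3p: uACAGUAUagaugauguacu
miR-451a: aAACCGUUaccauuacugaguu

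The 3p arms of miR-34b and miR-34c share the seed AUCACUA and differ at 5 of 22 positions. miR-27a-3p and miR-27b-3p differ at 1 of 21 positions outside the shared seed UCACAGU, and they were called in opposite directions. miR-204-5p and miR-211-5p also differ at 1 position, as do miR-103-3p and miR-107-3p, and let-7b-5p and let-7c-5p. miR-132-3p and miR-212-3p share the seed AACAGUC, while their 5p arms differ in the seed and at 13 of 22 compared positions.

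The question of this comparison is which miRNAs distinguish the hippocampus from the PFC in mice with excess AChE-R. Of 1300 mature miRNAs listed in the 7 libraries, 633 had enough counts to be tested, and 86 of them (13.6%) differed between the regions at a threshold of 0.05 on the adjusted p (quasi-likelihood F test in edgeR, adjusted by Benjamini-Hochberg). At an unadjusted p under 0.05 it was 174 (27.5%). Of the 86, 42 (6.64% of those tested) were higher in the hippocampus and 44 (6.95%) were higher in the PFC. The hippocampal miRNAs were fewer among abundant miRNAs and changed more. Their median log2 fold change was 0.84 with 20 of 42 at 2-fold or more, and 9 of the 42 averaged at least 1000 CPM. Those higher in the PFC had a median of -0.67 with 8 of 44 at 2-fold or more, and 19 of the 44 averaged at least 1000 CPM. Over all tested miRNAs the median was 0.03.

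Without PFC replicate 1, PFC replicate 3 or hippocampus replicate 1, 56, 43 and 45 miRNAs passed in place of 86, and without PFC replicate 2 the count was 125. Leaving out hippocampus replicate 2 gave 86, of which 74 were among the original calls, and leaving out both libraries numbered 2 gave 107, of which 78 were. Scaling by library size alone moved the median of all miRNAs to 0.13 and the split to 70 higher in the hippocampus and 37 higher in the PFC. The groups did not overlap for 169 of 633 miRNAs (26.7%), 92 with the hippocampus higher and 77 with the PFC higher. Among the called miRNAs, 41 of the 42 hippocampal and 44 of the 44 PFC ones showed no overlap.

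**Figure D1:**
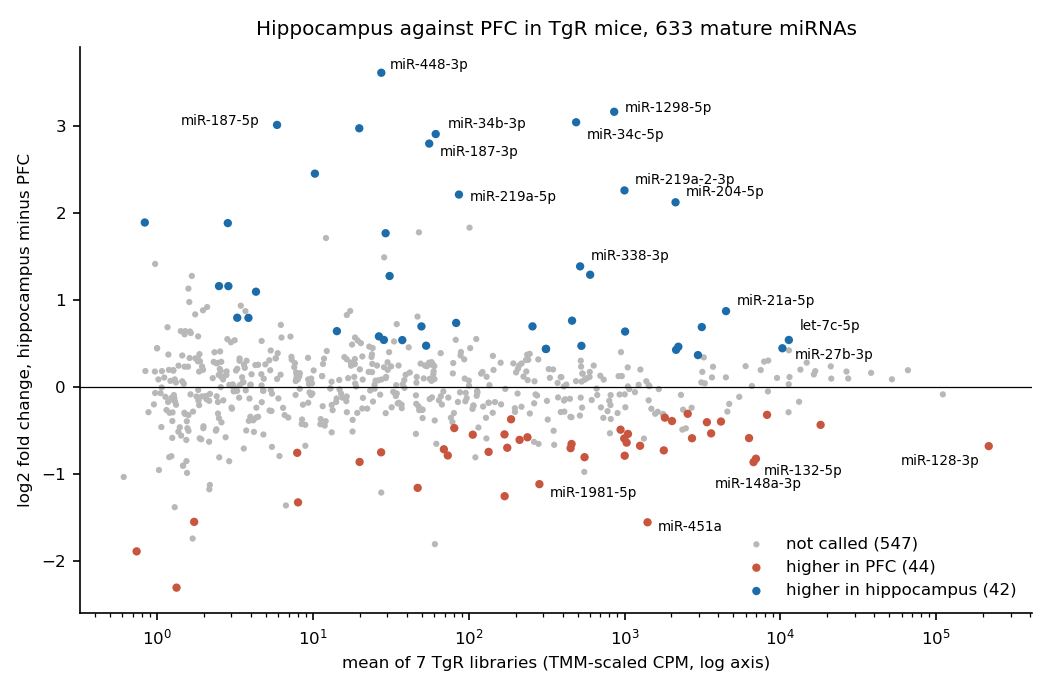
Each point is 1 of the 633 tested miRNAs, with its mean level over the 7 TgR libraries (TMM-scaled CPM, log axis) on the x axis and its log2 fold change, hippocampus minus PFC, on the y axis. Blue points (42) passed an adjusted p of 0.05 as higher in the hippocampus and red points (44) as higher in the PFC. The hippocampal changes reach a log2 fold change of 3.62 (miR-448-3p), while the most abundant miRNA, miR-128-3p, lies among the PFC ones at -0.68.

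Oligodendrocyte miRNAs were higher in the hippocampus. miR-219a and miR-338 are known to promote oligodendrocyte differentiation and myelination, and 4 of the 5 tested members of the oligodendrocyte list passed the test, all higher in the hippocampus, against 6.64% of all tested miRNAs. The median log2 fold change of the list was 1.39. miR-219a-2-3p was at 1497, 1367 and 2609 CPM in the hippocampi and at 405, 258, 344 and 513 CPM in the PFC. Every hippocampus lay well above every PFC library, and the log2 fold change was 2.26 (standard error, SE, 0.28, adjusted p = 0.0027). miR-219a-5p is counted here at the miR-219a-2 hairpin (chr2:29845631-29845727, minus strand) and cannot be told from the product of miR-219a-1. It was at 141, 154 and 176 CPM against 26.7, 42.1, 36 and 30.7 CPM. Its log2 fold change was 2.22 (SE 0.17, adjusted p = 0.0003).

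miR-338 lies in an intron of Aatk, a gene for an apoptosis-associated tyrosine kinase, at chr11:120014765-120014862 on the minus strand. miR-338-3p was at 704, 816 and 887 CPM in the hippocampi and 228, 424, 324 and 249 CPM in the PFC, a log2 fold change of 1.39 (SE 0.21, adjusted p = 0.0056). Its 5p arm gave 1.29 (SE 0.23, adjusted p = 0.0077), again with no overlap. The member that did not pass was miR-219a-1-3p, from the other miR-219a hairpin on chromosome 17, at 2.39 to 4.17 CPM in the 7 libraries (log2 fold change 0.21, adjusted p = 0.63). miR-219b-5p was at 0 in every library and miR-219b-3p reached at most 1 count. The summed level of the list was 3047 to 4849 CPM in the hippocampus and 978.8 to 1255 CPM in the PFC, and 4 members passed without hippocampus replicate 2, without PFC replicate 2 and without both.

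Both arms of miR-187 were far higher in the hippocampus. miR-187-3p was at 97.9, 60.3 and 170 CPM in the hippocampi and at 16.2, 11.2, 16.6 and 18.5 CPM in the PFC. The groups were far apart, and the log2 fold change was 2.80 (adjusted p = 0.0027). miR-187-5p was rarer, at 9.71, 4.96 and 20.8 CPM against 1.21 to 1.88 CPM, with a log2 fold change of 3.02 (adjusted p = 0.0061). Both arms kept an adjusted p under 0.05 in each alternative that tested them.

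Several choroid plexus miRNAs were also higher in the hippocampus, but with a wide spread among the hippocampi. Of 9 tested members of this list, 4 passed the test, all higher in the hippocampus, against 6.64% of all tested miRNAs, with a median log2 fold change of 1.77, and all 9 were above 0. miR-204-5p, encoded in an intron of the cation channel gene Trpm3 at chr19:22750605-22750672, was at 5198, 1636 and 4555 CPM in the hippocampi and 788, 891, 868 and 931 CPM in the PFC. The PFC libraries lay close together while hippocampus replicate 2 lay far below the other hippocampi, and the log2 fold change was 2.13 (SE 0.33, adjusted p = 0.0058). Its 3p arm was at 67.5, 22.9 and 57.4 CPM against 8.06 to 19.6 CPM (log2 fold change 1.77, adjusted p = 0.018). miR-211-5p, the relative in an intron of Trpm1 that differs from miR-204-5p at 1 base, was at 1.19 to 2.55 CPM with a log2 fold change of 0.59 (adjusted p = 0.15).

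miR-1264, miR-1298 and miR-448 lie in introns of Htr2c, the gene of the serotonin 2C receptor, on the plus strand of chromosome X, and this gene is known to be highly transcribed in the choroid plexus. miR-1298-5p (chrX:147064905-147065002) was at 2860, 317 and 2054 CPM in the hippocampi and 153, 98.3, 184 and 340 CPM in the PFC. Hippocampus replicate 2 lay below PFC replicate 4, so this was the only called miRNA whose groups overlapped, and its log2 fold change was 3.17 (SE 0.68, adjusted p = 0.016). miR-448-3p (chrX:147158210-147158321) was at 99.3, 11.4 and 63.2 CPM against 4.34, 3.15, 4.5 and 6.63 CPM, the largest log2 fold change of all called miRNAs at 3.62 (SE 0.63, adjusted p = 0.0067). miR-1264-3p had the same order of libraries within each region, at 262, 55.8 and 199 CPM against 39.3, 23.1, 46.4 and 83.5 CPM, but did not pass (log2 fold change 1.83, adjusted p = 0.056). The other arms were far less abundant and did not pass, with log2 fold changes of 0.73 for miR-1298-3p, 0.54 for miR-448-5p and 0.88 for miR-1264-5p.

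In the list itself miR-1912 was too rare to test and miR-211-3p was not listed. The summed level of the choroid plexus list was 2086 to 8592 CPM in the hippocampus and 1034 to 1458 CPM in the PFC, with the lowest hippocampal sum in replicate 2. Without that library 11 members could be tested, 7 passed and the median rose to 2.25, and miR-1264-3p then passed with a log2 fold change of 2.25 (adjusted p = 0.014), as it did without PFC replicate 4 (2.23, adjusted p = 0.037). Without both libraries numbered 2, 7 of 11 passed with a median of 2.06. The call of miR-1298-5p was lost on leaving out PFC replicate 1, PFC replicate 3, hippocampus replicate 1 or hippocampus replicate 3 (adjusted p = 0.051 to 0.06), and that of miR-204-3p on leaving out the same libraries (0.057 to 0.071). How much choroid plexus tissue each dissection held was not measured, and its part in these values was not tested.

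miR-34b and miR-34c come from hairpins at chr9:51103034-51103645 on the minus strand, opposite an intron of Btg4, and are known for their role in multiciliated cells beside miR-449. All 4 miR-34b/c arms were higher in the hippocampus. miR-34c-5p was at 1225, 576 and 1147 CPM in the hippocampi and 128, 88, 135 and 124 CPM in the PFC (log2 fold change 3.05, SE 0.27, adjusted p = 0.00045). miR-34b-3p was at 136, 80.5 and 149 CPM against 16.6, 13, 19 and 16 CPM (2.91, SE 0.23, adjusted p = 0.0003). In both, replicate 2 was the lowest hippocampus and still lay far above each PFC library. miR-34b-5p and miR-34c-3p gave log2 fold changes of 2.98 and 2.46 (adjusted p = 0.0021 and 0.0037).

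Their relatives with the 5p seed GGCAGUG did not pass the test. miR-34a-5p, which p53 is known to induce, was at 175, 308 and 211 CPM in the hippocampi and 142, 339, 186 and 113 CPM in the PFC, with overlapping groups (log2 fold change 0.25, adjusted p = 0.71, and -0.04 without hippocampus replicate 2). It is named here because of its seed, after its values were seen. miR-449a-5p, in an intron of Cdc20b, was at 1.43 to 3.61 CPM against 0.543 to 1.88 CPM (log2 fold change 1.13, adjusted p = 0.16). Of the other defining miRNAs of the ciliated cell list, miR-449b was at 0 in all 7 libraries and miR-449c-5p at most at 0.176 CPM. Summed over its members, the list stood at 691.9 to 1430 CPM in the hippocampus and 109 to 165.6 CPM in the PFC. Of its 5 tested members 4 passed, all higher in the hippocampus, against 6.64% of all tested miRNAs. The 4 also passed without hippocampus replicate 2, where 45 of all 649 tested passed as higher in the hippocampus. Hippocampus replicate 2, the lowest in the choroid plexus list, was also the lowest hippocampus in these arms, and the part of ventricle-lining cells in the result was not tested.

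**Figure D2:**
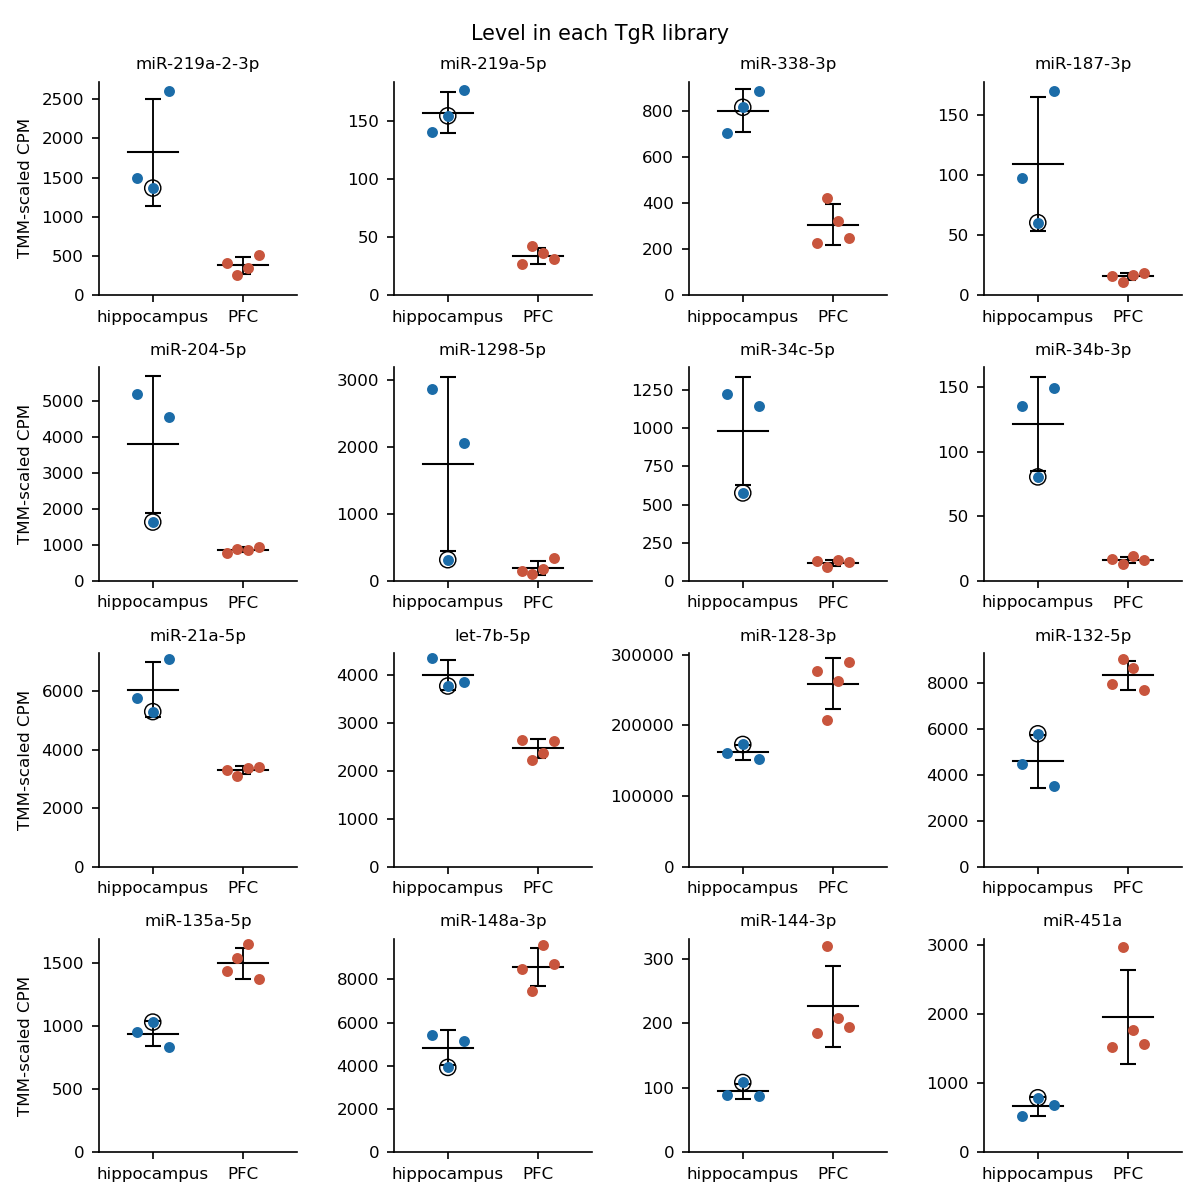
Each panel shows 1 miRNA, with the level in TMM-scaled CPM on a linear y axis from 0, the 3 TgR hippocampi in blue and the 4 TgR PFC libraries in red. Bars give the mean and SD, and a ring marks hippocampus replicate 2. That library is the lowest hippocampus in miR-204-5p, miR-1298-5p, miR-34c-5p and miR-34b-3p, and in miR-1298-5p it lies inside the range of the PFC (317 CPM against 98.3 to 340 CPM).

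Among abundant miRNAs, let-7b and let-7c were higher in the hippocampus. The let-7 family is known to rise with neuronal maturation and to restrain growth genes, and 2 of its 9 tested main arms passed, both higher in the hippocampus, against 6.64% of all tested miRNAs, with a family median of 0.20. With scaling by library size alone 6 of the 9 passed. let-7b-5p was at 4363, 3779 and 3865 CPM in the hippocampi and 2649, 2238, 2387 and 2634 CPM in the PFC (log2 fold change 0.69, adjusted p = 0.0037). let-7c-5p was at 15241, 12655 and 13523 CPM against 10110, 8061, 8790 and 10915 CPM (0.54, adjusted p = 0.017). The hairpins let-7c-2 and let-7b are neighbours at chr15:85706603-85707403 on the plus strand in the noncoding gene Lncppara, and all 4 tested arms of this pair passed, since let-7b-3p gave 0.59 and let-7c-2-3p gave 0.44. let-7c-2-3p and let-7a-1-3p held identical counts in each library, so reads of these arms cannot be assigned to either hairpin, and both are counted among the 86 calls. let-7c-5p can also come from the let-7c-1 hairpin. let-7a-5p, which differs from let-7c-5p at 1 base, gave 0.20 (adjusted p = 0.25). The call of let-7c-5p was lost without PFC replicate 3 (adjusted p = 0.064) or hippocampus replicate 1 (0.05). The calls of both 3p arms were lost without PFC replicate 1, PFC replicate 3, hippocampus replicate 1 or hippocampus replicate 3, and that of let-7b-3p also without hippocampus replicate 2 (adjusted p = 0.05 to 0.075).

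miR-21a-5p, which is known to be raised in reactive glia and overlaps an exon of Vmp1 on chromosome 11, was at 5760, 5296 and 7099 CPM in the hippocampi and 3317, 3105, 3381 and 3390 CPM in the PFC. The groups were clearly apart, with a log2 fold change of 0.88 (SE 0.11, adjusted p = 0.0027). miR-155-5p, an immune cell miRNA, gave 1.16 (adjusted p = 0.0088) but at only 1.63 to 4.81 CPM, and it lost its call without hippocampus replicate 1 (adjusted p = 0.05). miR-146a-5p and miR-146b-5p, the other tested members of the glial and inflammation list, both had a log2 fold change of -0.28 and did not pass, and the list median was 0.30. Without PFC replicate 2 the pair passed as higher in the PFC. miR-484 (0.77, adjusted p = 0.0044) and miR-28a-5p, in an intron of Lpp (0.74, adjusted p = 0.0088), were higher in the hippocampus by similar amounts.

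miR-103-3p and miR-107-3p share the seed GCAGCAU and lie in introns of pantothenate kinase genes, Pank2 for the counted miR-103 hairpin and Pank1 for miR-107. miR-103-3p rose from a PFC mean of 1864 ± 161 to a hippocampal mean of 2511 ± 63.1 CPM and miR-107-3p rose from 453 ± 14.9 to 630 ± 56.5 CPM (SD, n = 4 and n = 3), with log2 fold changes of 0.43 and 0.48 (adjusted p = 0.015 and 0.013). Both lost the call without PFC replicate 3 (adjusted p = 0.06 and 0.052). miR-26b-5p, in an intron of the phosphatase gene Ctdsp1, rose from 1903 ± 106 to 2629 ± 176 CPM (0.47, adjusted p = 0.0088), and lost its call without hippocampus replicate 1 (0.05). Its far more abundant relative miR-26a-5p was at 70930 ± 4879 CPM in the hippocampus and 61915 ± 4353 CPM in the PFC and did not pass (0.20, adjusted p = 0.16), although the groups did not overlap. Without hippocampus replicate 2 it passed (0.24, adjusted p = 0.034).

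In the PFC the most abundant miRNA of the libraries was among those that were higher. miR-128-3p, a neuron-enriched miRNA known to limit neuronal excitability, was at 161218, 172827 and 151550 CPM in the hippocampi and 276599, 206834, 261916 and 289269 CPM in the PFC. No hippocampus reached the lowest PFC library, and the log2 fold change was -0.68 (SE 0.12, adjusted p = 0.0066), 1.6-fold. Its row is the miR-128-1 hairpin in an intron of R3hdm1 at chr1:128202361-128202430, and reads of the mature sequence cannot be told from those of the other miR-128 hairpin. No other member of the neuronal list passed. Of its 14 tested members 8 were below 0, the median was -0.16, and miR-9-5p, miR-124-3p and miR-218-5p had log2 fold changes of -0.08, 0.31 and 0.17. The value of miR-9-5p turned to 0.02 with scaling by library size alone, and miR-124-3p passed without PFC replicate 2 (0.37, adjusted p = 0.045).

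The miR-132/212 cluster was higher in the PFC in its 5p arms. miR-132 is induced by neuronal activity and CREB and is a known inhibitor of AChE, and the cluster lies at chr11:75173388-75173747 on the plus strand. miR-132-5p was at 4475, 5780 and 3500 CPM in the hippocampi and 7946, 9015, 8663 and 7670 CPM in the PFC (log2 fold change -0.86, adjusted p = 0.0088). miR-212-5p was at 1209, 1573 and 1120 CPM against 2262, 2019, 2142 and 2179 CPM (-0.73, adjusted p = 0.0067). The 3p arms carry the shared seed AACAGUC and did not pass. miR-132-3p was at 1728, 2487 and 1516 CPM against 2694, 3229, 2636 and 2148 CPM, with overlapping groups (-0.49, adjusted p = 0.14). miR-212-3p overlapped as well (-0.46, adjusted p = 0.30). In all 4 arms hippocampus replicate 2 was the highest hippocampus, and without it miR-132-3p passed at -0.74 (adjusted p = 0.042), so that 3 of the 4 arms were called. Without both libraries numbered 2, all 4 arms passed.

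The miR-135a-1 and miR-1981 hairpins had both arms higher in the PFC. miR-135a-5p was at 953, 1030 and 833 CPM in the hippocampi and 1436, 1533, 1648 and 1367 CPM in the PFC (log2 fold change -0.67, adjusted p = 0.0063), and the rarer miR-135a-1-3p was at 10.8 ± 1.33 CPM in the PFC and 4.32 ± 0.996 CPM in the hippocampus (SD, n = 4 and n = 3), a log2 fold change of -1.32 (adjusted p = 0.0063). miR-1981-5p, in an intron of Marc2, was at 171, 187 and 154 CPM against 415, 299, 390 and 373 CPM (-1.11, adjusted p = 0.0027), and its 3p arm gave -0.75 (adjusted p = 0.018). The groups did not overlap in any of these 4 arms. miR-674-3p (-0.79), miR-592-5p (-0.70, overlapping an exon of the metabotropic glutamate receptor gene Grm8), miR-340-3p (-0.65), miR-149-5p (-0.64) and miR-708-3p (-0.54, in an intron of Tenm4) passed at adjusted p values from 0.005 to 0.008. Among these, miR-592-5p lost its call without hippocampus replicate 1 (adjusted p = 0.051), as did miR-1981-3p (0.085).

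Of the 7 listed arms of the paralogous miR-23, miR-27 and miR-24 clusters, 1 passed as higher in the hippocampus and 2 as higher in the PFC, against 6.64% and 6.95% of all tested miRNAs. These hairpins are transcribed together, miR-23b, miR-27b and miR-24-1 at chr13:63300484-63301275 and miR-23a, miR-27a and miR-24-2 at chr8:84208518-84208921. From the chromosome 13 cluster, miR-27b-3p was at 11903, 11878 and 12690 CPM in the hippocampi and 10061, 7745, 8934 and 8890 CPM in the PFC (log2 fold change 0.45, adjusted p = 0.015). From the chromosome 8 cluster, miR-27a-3p was at 2285, 2200 and 2238 CPM against 2757, 2914, 2887 and 2513 CPM (-0.30, adjusted p = 0.043), although it differs from miR-27b-3p at 1 base. miR-24-2-5p went the same way, at 361, 327 and 308 CPM against 518, 561, 582 and 497 CPM (-0.70, adjusted p = 0.0056), while miR-24-1-5p gave 0.36 (adjusted p = 0.098). miR-23b-3p and miR-23a-3p gave 0.40 and -0.23 and did not pass, although miR-23b-3p did without PFC replicate 2 (0.47, adjusted p = 0.017). miR-23b-5p, which is not in the list, passed as higher in the hippocampus (0.80) at a mean of 3.86 CPM. The small difference of miR-27a-3p lost its call on leaving out any 1 of the 7 libraries except PFC replicate 4 (adjusted p = 0.051 to 0.17), and miR-27b-3p lost it without PFC replicate 3 (0.054).

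miR-148a-3p was higher in the PFC while the relatives with its seed CAGUGCA were not. It was at 5432, 3930 and 5171 CPM in the hippocampi and 8457, 7480, 9594 and 8701 CPM in the PFC (log2 fold change -0.82, SE 0.13, adjusted p = 0.0063). miR-148b-3p was at 641 ± 32.9 and 567 ± 37.6 CPM (SD, n = 3 and n = 4), and miR-152-3p at 131 ± 14.7 and 116 ± 12.9 CPM, each with a log2 fold change of 0.18 (adjusted p = 0.27 and 0.46). The 3 genes are unlinked, on chromosomes 6, 15 and 11, and whether the relatives differ from miR-148a-3p was not tested. miR-148b and miR-152 lie in introns of the coatomer genes Copz1 and Copz2.

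The imprinted Dlk1-Dio3 region on chromosome 12, whose miRNAs are expressed from the maternal allele, is a large miRNA cluster and is active in neurons. Of its 91 tested miRNAs, 10 passed the test and all 10 were higher in the PFC, that is 11% in this direction against 6.95% of all tested miRNAs. In total 73 of the 91 were below 0, with a median of -0.19 against 0.03 over all miRNAs. In FVB/N 54 of 90 were below 0, with a median of -0.06 against 0.01 over all miRNAs tested there. No member passed in FVB/N, where 9 of all 615 tested (1.46%) passed as higher in the PFC. Over all tested miRNAs, calls as higher in the PFC were more frequent among abundant ones, with 19 of 86 over 1000 CPM and 5 of 245 under 10 CPM. The share in this cluster was not matched for abundance. The called members were spread over the region. miR-770-3p lies near Meg3, miR-540-3p, miR-431-5p and miR-434-5p lie near or opposite Rtl1, and miR-379-5p, miR-411-5p, miR-679-5p, miR-541-5p, miR-409-3p and miR-369-5p belong to the distal miR-379 to miR-410 cluster. miR-541-5p was at 2873, 2903 and 2822 CPM in the hippocampi and 4419, 3670, 4158 and 4305 CPM in the PFC (log2 fold change -0.53, adjusted p = 0.0063). miR-434-5p was at 4982, 4853 and 4854 CPM against 7926, 5780, 7662 and 7991 CPM (-0.58, adjusted p = 0.014). miR-379-5p was at 2230, 2164 and 1924 CPM against 3505, 2649, 3136 and 3351 CPM (-0.59, adjusted p = 0.011).

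PFC replicate 2 was the lowest PFC library in each of these 3 miRNAs. Without it 16 of the 91 passed as higher in the PFC, against 64 of all 628 tested. Without hippocampus replicate 2 it was 7, against 41 of all 649 tested. With scaling by library size alone, 62 of 91 were below 0, the median was -0.08 against 0.13 over all miRNAs, 8 passed as higher in the PFC and 1 as higher in the hippocampus. The log2 fold changes of the other 7 called members ran from -0.75 (miR-679-5p) to -0.40 (miR-411-5p), and each of these calls depended on single libraries. miR-409-3p was lost without hippocampus replicate 1 (adjusted p = 0.059). The other 6 were each lost without PFC replicate 3 and without PFC replicate 4, 5 of them without PFC replicate 1, 5 without hippocampus replicate 1, and some without hippocampus replicate 2 or 3 (adjusted p = 0.055 to 0.19). miR-434-5p was lost without PFC replicate 3 (0.052), while miR-541-5p and miR-379-5p were not lost without any 1 library.

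**Figure D3:**
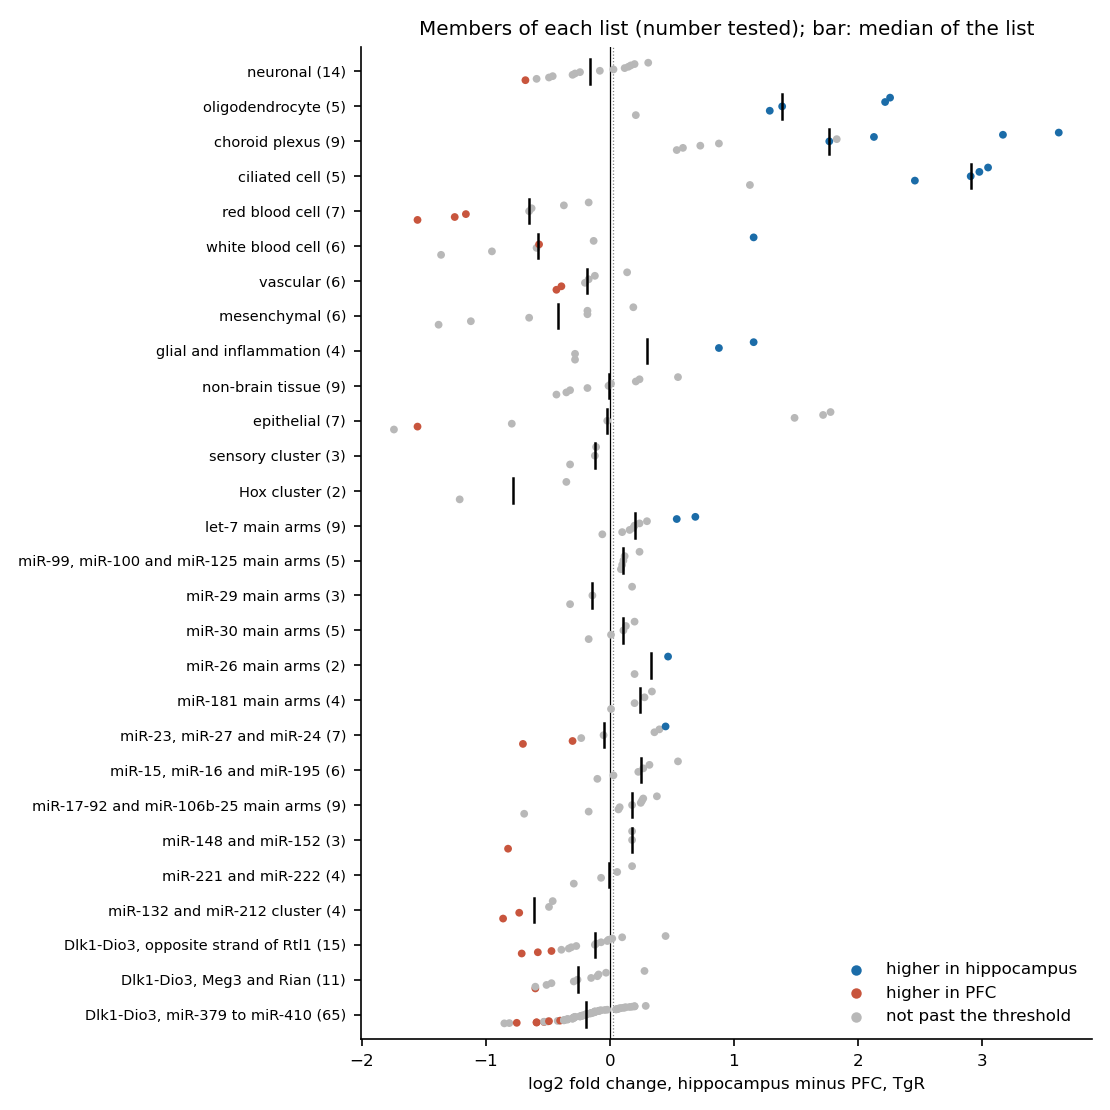
Each row is a list of miRNAs with the number tested in parentheses, and each point is the log2 fold change of a member, hippocampus minus PFC, in TgR mice. Blue and red mark members past an adjusted p of 0.05, grey the others, the black bar is the median of the list and the dotted line the median of all 633 tested miRNAs (0.03). The oligodendrocyte, choroid plexus and ciliated cell lists lie to the right, with medians of 1.39, 1.77 and 2.91, and the red blood cell and miR-132/212 lists lie to the left, at -0.65 and -0.61.

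Of 7 red blood cell miRNAs, 3 passed as higher in the PFC, against 6.95% of all tested miRNAs. All 3 are arms of miR-144 and miR-451a, the erythroid pair encoded at 1 locus, chr11:78073005-78073241. miR-451a, which is processed by Argonaute 2 without Dicer, was at 520, 790 and 692 CPM in the hippocampi and 1530, 2968, 1767 and 1563 CPM in the PFC, where replicate 2 stood out (log2 fold change -1.55, SE 0.26, adjusted p = 0.0066). miR-144-3p was at 89.2, 108 and 87.5 CPM against 185, 319, 207 and 194 CPM (-1.25, adjusted p = 0.0066), and miR-144-5p gave -1.16 (adjusted p = 0.0037). The 4 miR-486 arms were also below 0 and did not pass, as for miR-486a-5p with -0.63 (adjusted p = 0.13), which passed only without hippocampus replicate 3 (-0.98, adjusted p = 0.035). Summed, the list held 985.8 to 1393 CPM in the hippocampus and 2308 to 4045 CPM in the PFC, and 3 of 7 also passed without PFC replicate 2. How much blood each tissue held was not measured, and its part in this difference was not tested.

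A few vascular and white blood cell miRNAs passed the test. miR-126a-3p, the endothelial miRNA of Egfl7, was at 15897, 13887 and 15520 CPM in the hippocampi and 22023, 17646, 21747 and 20070 CPM in the PFC (log2 fold change -0.43, adjusted p = 0.019). miR-143-3p, known from smooth muscle, gave -0.39 (adjusted p = 0.03) with no overlap, while miR-145a-5p of the same transcript gave -0.17 (adjusted p = 0.49). Of the 6 vascular arms these 2 passed, against 6.95% of all tested miRNAs in this direction. miR-126a-3p lost its call without PFC replicate 1 or 3 (adjusted p = 0.053 and 0.071), and miR-143-3p without PFC replicate 1, PFC replicate 3 or hippocampus replicate 1 (0.077 to 0.11). Of 6 white blood cell miRNAs, miR-142a-5p passed as higher in the PFC, at 194, 181 and 183 CPM against 276, 292, 262 and 279 CPM (-0.57, adjusted p = 0.0066), and miR-155-5p passed as higher in the hippocampus. These are 1 of 6 in each direction, against 6.95% of all tested miRNAs as higher in the PFC and 6.64% as higher in the hippocampus.

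In several lists few or no members passed. None of the tested members of the mesenchymal (6), non-brain tissue (9), sensory cluster (3) and Hox cluster (2) lists passed in edgeR's test, and the same held for the main arms of the miR-99/100/125 (5), miR-29 (3), miR-30 (5), miR-181 (4), miR-15/16/195 (6), miR-17-92 and miR-106b-25 (9) and miR-221/222 (4) families. Their median log2 fold changes lay between -0.78 in the Hox cluster and 0.25 in the miR-15/16/195 family. Outside these lists, miR-16-1-3p passed as higher in the hippocampus (0.54), as did 1 arm of the miR-181a-1 and miR-181b-1 cluster. Over these 11 lists, 9 of 56 members had an unadjusted p under 0.05, against 174 of all 633 tested (27.5%). With DESeq2 4 of the 56 passed, against 124 of all 633. In the non-brain list, the muscle miRNAs miR-1a-3p and miR-206-3p stood out in PFC replicate 4, at 1951 and 35.1 CPM against at most 498 and 2.5 CPM in the other PFC libraries. Without that library miR-1a-3p passed as higher in the hippocampus (0.56, adjusted p = 0.037, against -0.35 with it). Among epithelial miRNAs, miR-200a-3p was at 104, 110 and 27.2 CPM in the hippocampi and 24.4, 15.1, 43.1 and 10.9 CPM in the PFC. Hippocampus replicate 3 thus lay among the PFC libraries, and the log2 fold change of 1.78 did not pass (adjusted p = 0.07). miR-200b-3p and miR-429-3p also had their lowest hippocampal level in replicate 3 and did not pass (1.49 and 1.72, adjusted p = 0.11 each), and without hippocampus replicate 3 all 3 passed (0.03, 0.028 and 0.022). miR-205-5p passed as higher in the PFC (-1.55, adjusted p = 0.049) at no more than 2.8 CPM, and lost this call without PFC replicate 1, 2 or 3 or hippocampus replicate 1 or 3 (0.053 to 0.16).

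Both arms of a hairpin mostly had the same sign, but often only 1 of them was called. Of 205 hairpins with both arms tested, 139 had arms of the same sign, and of the 50 with at least 1 called arm, 46 did. Both arms were called in the same direction in 13 hairpins and in opposite directions in 0. Across hairpins, the log2 fold changes of the 5p and the 3p arm had a Pearson r of 0.74, given as a description because both arms come from the same libraries and hairpins are not independent replicates. The arms parted most in miR-448 (0.54 and 3.62) and miR-1298 (3.17 and 0.73), where the rarer arm had the smaller value. In other hairpins the more abundant arm had the smaller value. miR-340-5p averaged 2300 CPM and gave -0.09, against 457 CPM and -0.65 for the called miR-340-3p. miR-369-3p averaged 1260 CPM and gave 0.20, against 995 CPM and -0.59 for the called miR-369-5p. Members of 1 seed group also had unlike values, as with miR-27a-3p (-0.30) and miR-27b-3p (0.45) or miR-34b-5p (2.98) and miR-34a-5p (0.25).

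**Figure D4:**
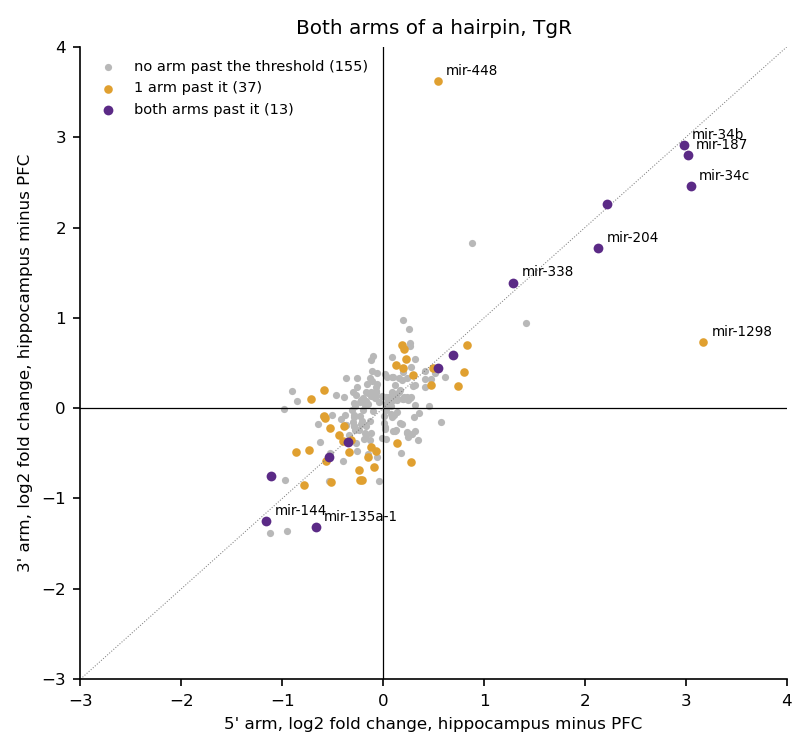
Each point is 1 of 205 hairpins with both arms tested, with the log2 fold change (hippocampus minus PFC, TgR) of the 5′ arm on the x axis and of the 3′ arm on the y axis, and the dotted line marks equal change. Purple points (13) had both arms past an adjusted p of 0.05 and yellow points (37) a single arm. Most called hairpins lie where both arms have the same sign, and miR-448 and miR-1298 lie far from the line.

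The same contrast in FVB/N mice asked whether the regional profile is shared by the parent strain. These 6 libraries share no sample with the 7 TgR libraries and were scaled separately. In FVB/N, 22 of 615 tested miRNAs (3.58%) passed, 13 higher in the hippocampus (2.11%) and 9 in the PFC (1.46%). This count ran from 8 without FVB/N PFC replicate 2 to 51 without FVB/N PFC replicate 3, and was 13, 9 and 12 without FVB/N hippocampus replicate 1, 2 or 3. Of the 84 miRNAs called in TgR and tested in FVB/N, 75 (89.3%) had the same sign there, against 68.0% of all 610 miRNAs tested in both, and 11 were called in FVB/N in the same direction. Across the 610 miRNAs the log2 fold changes had a Pearson r of 0.56 and a Spearman rho of 0.50, as a description across miRNAs. miR-187-3p had a similar regional difference in FVB/N, with a log2 fold change of 2.67 (adjusted p = 7.3e-05). It was at 93.3, 92.4 and 104 CPM in the FVB/N hippocampi and 14.9, 15.9 and 14.8 CPM in the FVB/N PFC. miR-219a-2-3p (1.53, adjusted p = 0.0061) and miR-338-5p (0.98, adjusted p = 0.02) were higher in the FVB/N hippocampus, and miR-132-5p (-1.04, adjusted p = 0.014), miR-132-3p (-1.11, adjusted p = 0.0061), miR-212-5p (-1.01, adjusted p = 0.035) and miR-135a-1-3p (-1.90, adjusted p = 0.0062) were higher in the FVB/N PFC. miR-128-3p had a log2 fold change of -0.58 that did not pass (adjusted p = 0.12). The test of the difference between the strains gave adjusted p values of 0.51 to 0.96 for these 8 miRNAs.

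The regional difference itself was compared between the strains in a fit of all 13 libraries. Of 647 miRNAs tested, 3 (0.464%) differed, and 55 (8.5%) had an unadjusted p under 0.05. The count was 8 without TgR hippocampus replicate 2, and 5 each without TgR PFC replicate 2 or FVB/N hippocampus replicate 1. All 3 are arms of miR-34b/c, whose hippocampal excess was larger in TgR. On the log2 scale the excess of miR-34b-3p was larger by 2.56 (SE 0.37, adjusted p = 0.0046). That of miR-34c-5p was larger by 2.42 (SE 0.38, adjusted p = 0.0072), and that of miR-34c-3p by 2.63 (SE 0.49, adjusted p = 0.025). In FVB/N, miR-34c-5p was at 196, 231 and 115 CPM in the hippocampi and 120, 115 and 109 CPM in the PFC, and miR-34b-3p at 25.9, 17.8 and 16.9 CPM against 20.2, 12.1 and 14.2 CPM. For miR-34c-5p, FVB/N hippocampus replicates 1 and 2 lay above every FVB/N PFC library and replicate 3 lay among them. Its log2 fold change in FVB/N was 0.66 (adjusted p = 0.23). For miR-34b-3p the FVB/N groups overlapped (0.37, adjusted p = 0.54). miR-34b-5p missed the threshold (2.76, adjusted p = 0.053). The rare miR-449a-5p of the same ciliated cell list went the other way, with a difference of -0.61 that did not pass (adjusted p = 0.89). Its log2 fold change was 1.77 in FVB/N, where it passed (adjusted p = 0.035), and 1.13 in TgR, where it did not (0.16). The differences of miR-34b-3p and miR-34c-5p passed in each of 21 alternatives, and that of miR-34c-3p in 14 of 20. It missed the threshold without TgR hippocampus replicate 1 or 3, TgR PFC replicate 4, FVB/N hippocampus replicate 2 or 3, or FVB/N PFC replicate 1 (adjusted p = 0.062 to 0.12). The shift of miR-148a-3p (-1.36) and of miR-99a-5p (-0.82) did not pass (adjusted p = 0.07 each). In FVB/N, miR-148a-3p was at 8696, 8864 and 17309 CPM in the hippocampi against 7803, 7572 and 8350 CPM in the PFC. Its log2 fold change there was 0.56 (adjusted p = 0.29), opposite in sign to that in TgR. miR-155-5p (-0.90), miR-708-3p (0.19), miR-434-5p (0.20) and miR-770-3p (0.25) were also opposite in sign in FVB/N and did not pass there. miR-99a-5p was at 71063 to 95480 CPM in the FVB/N hippocampi against 41689 to 46736 CPM in the FVB/N PFC but gave 0.09 in TgR. The choroid plexus list had a median of 0.37 in FVB/N. Of its 9 members, 0 passed there in edgeR, against 13 of all 615 tested miRNAs (2.11%) as higher in the hippocampus. For the difference between the strains, miR-204-5p gave 1.53, miR-1298-5p 2.40 and miR-448-3p 3.24 (adjusted p = 0.21, 0.24 and 0.11). For miR-451a the difference was -1.22 (adjusted p = 0.24).

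**Figure D5:**
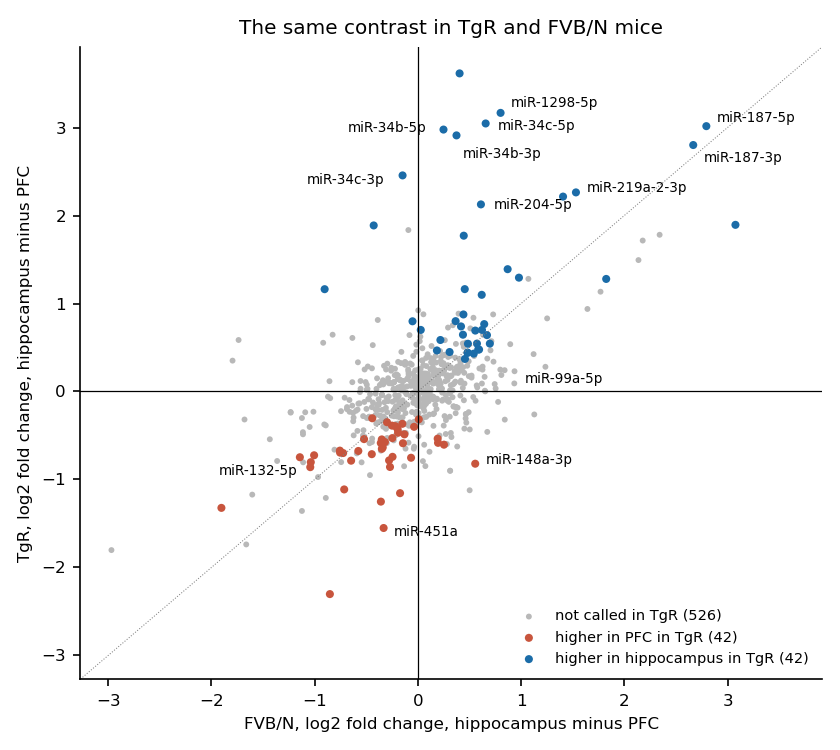
Each point is 1 of 610 miRNAs tested in both strains, with the log2 fold change, hippocampus minus PFC, in FVB/N on the x axis and in TgR on the y axis, and the dotted line marks equal change. Blue and red points passed an adjusted p of 0.05 in TgR. miR-187-3p and miR-187-5p lie near the line (2.67 and 2.79 in FVB/N, 2.80 and 3.02 in TgR), whereas the arms of miR-34b/c lie far above it, between -0.15 and 0.66 in FVB/N and between 2.46 and 3.05 in TgR.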

How the data were processed

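Small RNA was sequenced by the study's authors from total RNA (300 ng per library, RNA integrity numbers 8.6 to 9.3) with the NEBNext Multiplex Small RNA kit on a NextSeq 500. The authors aligned reads to miRBase with miRExpress at default parameters and deposited, for each library, read counts per pair of hairpin and mature miRNA, not normalised and without molecular identifiers. The level that 3 counts correspond to covers counting error only. Of 69 mature miRNAs listed at several hairpins, 58 had totals within 5% at each, and 1 entry per mature miRNA was kept, the hairpin with the highest total.

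Counts were tested with edgeR 4.0.16 (R 4.3.3, limma 3.58.1) by quasi-likelihood with TMM factors, filterByExpr at a minimum of 10 counts and Benjamini-Hochberg adjustment over all tested miRNAs at 0.05. DESeq2 1.42.0, other scalings, filters, a replicate block and leaving out libraries were alternatives. In a test on simulated data with 200 of 633 miRNAs changed, 82% of 2-fold and 99% of 4-fold changes were recovered and 4.23% of calls were false. The simulation gave every miRNA the same spread (coefficient of variation 21.8%) and held no outlying library. Its rates therefore need not hold for the real libraries, where the spread differed between miRNAs. An exact permutation test of 3 against 4 libraries cannot go below p = 0.057, so none is given. Groups and replicate numbers came from the titles, which number animals for the PFC and give only a number for the hippocampus, and p-values measure the spread between these libraries, with no pair of them alike within sampling noise.

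miRNAs were named by a rule: up to 15 per direction with the smallest adjusted p, no overlap and at least 100 CPM, the 10 most abundant, the 5 largest folds per direction at 10 CPM or more, tested members of 28 lists, their other arms, and those that differed between strains. The members and the lists were chosen with earlier results of these data known. Host genes and sequences are from RefSeq and the annotation of GRCm38.p6.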

Additional observations from a re-analysis of the deposited data

Results flagged for a closer look

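Within the 4 PFC libraries, 97 of the miRNAs named were checked for 1 value far from the other 3 (beyond Dixon's limit for 4 samples). This was so for 11 of these 97 (11.3%) and for 44 of all 633 tested (6.95%), where chance gives about 1 in 20. PFC replicate 2 was the library apart in 7 of the 11. It was high in miR-451a (2968 CPM against 1530 to 1767) and miR-144-3p (319 CPM against 185 to 207). It was low in miR-26a-5p (55436 CPM against 63592 to 64831), miR-434-5p (5780 CPM against 7662 to 7991), miR-369-5p (876 CPM against 1229 to 1296), miR-101a-3p (2255 CPM against 2729 to 2798) and miR-101b-3p (635 CPM against 847 to 887). PFC replicate 4 was high in the muscle miRNAs miR-1a-3p (1951 CPM against 380 to 498) and miR-206-3p (35.1 CPM against 0.35 to 2.5) and low in miR-205-5p (1.58 CPM against 2.61 to 2.8). PFC replicate 3 was low in let-7b-3p (20.2 CPM against 22.4 to 22.5). The difference between the strains in the regional contrast passed its test for miR-34b-3p (2.56 on the log2 scale), miR-34c-5p (2.42) and miR-34c-3p (2.63).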

How the results depend on the processing

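The count of 86 miRNAs fell to 16 in a test against a fold of 1.5 and was 134 at an adjusted p under 0.1, and leaving out 1 library gave 43 to 125. With DESeq2 it was 124, including all 86, and with 13 libraries in a single fit 66. The members called over all lists numbered 41, or 11 against a fold of 1.5, and 26 to 57 without 1 library. In FVB/N the count of 22 became 34 with DESeq2, 52 with no filter, 14 at a mean of at least 300 normalised counts, 49 with 13 libraries, 35 at an adjusted p under 0.1, and 8 to 51 without 1 library. The count of 3 for the difference between strains became 11 with DESeq2, 16 with no filter, 6 at an adjusted p under 0.1, and 2 to 8 without 1 library. The alternatives were followed for 97 of the miRNAs named, of which 68 passed the main test. All 68 kept their sign in each alternative that tested them and passed with DESeq2. Of these, 15 passed in every such alternative, and 35 passed without any 1 library. The sign turned for miR-34a-5p without hippocampus replicate 2 (-0.04, with -0.04 to 0.67 over the libraries left out), for miR-9-5p with library size only (0.02), and without PFC replicate 4 for miR-1a-3p (0.56, range -0.58 to 0.56) and miR-206-3p (2.12, range -1.48 to 2.12), and the cause was not tested. Same-numbered hippocampus and PFC libraries deviated from their group means with correlations of 0.14, 0.53 and -0.38 over 388 miRNAs, so the numbers were not taken as pairs. With a replicate block, in which PFC replicate 4 does not inform the contrast, the counts were 103 in TgR, 32 in FVB/N and 10 for the difference between strains (FVB/N PFC libraries were blocked by the numbers of their titles, from which those of their files differ), miR-1a-3p was at 0.58 and miR-206-3p at 2.04. Depth limits miRNAs under about 1 CPM, where 3 counts are 0.27 to 0.561 CPM.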

Other observations

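Among the called miRNAs not described above, several were picked after their values were seen. miR-335-3p, from an intron of the imprinted gene Mest, was at 413, 427 and 325 CPM in the hippocampi and 789, 543, 693 and 685 CPM in the PFC (log2 fold change -0.80, adjusted p = 0.01). Both arms of miR-873a were higher in the PFC by the same amount, -0.54 each (adjusted p = 0.035 and 0.034), though both calls were lost without PFC replicate 1, 3 or 4 or hippocampus replicate 1, and that of miR-873a-3p also without hippocampus replicate 3 (adjusted p = 0.05 to 0.11). The neuronal miR-139-5p gave -0.32 (adjusted p = 0.031) and lost its call without 4 of the 7 libraries (PFC replicates 1 and 3, hippocampus replicates 1 and 2).

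In the hippocampus, miR-7a-2-3p was at 51.2, 44.3 and 45.2 CPM against 20.4, 10.2, 20.5 and 25.7 CPM in the PFC (log2 fold change 1.28, adjusted p = 0.015), and it also passed in FVB/N (1.82, adjusted p = 0.0061). It lost its call without PFC replicate 3 (0.052) or hippocampus replicate 1 (0.05). miR-101b-3p and miR-101a-3p gave 0.64 and 0.37 (adjusted p = 0.015 and 0.036). Without PFC replicate 3 neither passed (0.052 and 0.071), and miR-101a-3p also missed the threshold without PFC replicate 1, PFC replicate 4 or hippocampus replicate 1. miR-92b-3p gave 0.70 (adjusted p = 0.02), lost without PFC replicate 3, hippocampus replicate 1 or hippocampus replicate 3 (0.063 to 0.071).

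miR-881-3p and miR-871-3p, neighbours at chrX:66801944-66810504 on the minus strand, both passed as higher in the PFC at very low levels. miR-881-3p was at 0.264 to 0.662 CPM in the hippocampi and 0.701 to 2.67 CPM in the PFC, and miR-871-3p at 0.221 to 0.352 CPM against 0.89 to 1.3 CPM, so the hippocampal levels are close to what 3 counts give. Both lost the call without hippocampus replicate 1 (adjusted p = 0.073 and 0.058) and miR-881-3p also without hippocampus replicate 3 (0.064). The 18 called miRNAs that are named nowhere had log2 fold changes of -0.86 to -0.35 (6 higher in the PFC) and 0.44 to 1.89 (12 higher in the hippocampus).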
